A study of Mus musculus with 21 samples.

Results

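The 30 genes described here encode the enzymes of sterol and fatty acid synthesis and their closest regulators, and were taken from a list of gene names among 34478 genes measured. They hold 6 enzymes of the mevalonate pathway, 3 that lead from farnesyl units to lanosterol, 7 that turn lanosterol into cholesterol, 3 genes of the SREBP system, 1 sterol carrier, 4 genes for acetyl-CoA supply and the making of fatty acids, 5 for their elongation and desaturation, and 1 for glycerolipid synthesis. All 30 passed the filter on low values, which kept 19300 genes, and the lowest value of any of them in any sample was 97.5. Expression was measured by RNA-seq in primary cell lines, each from a pancreatic tumour of a mouse that carries Ptf1awt/Cre together with Trp53loxP/loxP, in which Cre from the Ptf1a locus deletes Trp53, so every sample shares these alleles. Parental cells (6 samples) never met the MEK inhibitor (MEKi) trametinib, which blocks the kinase above ERK in the MAPK cascade, and resistant cells (6 samples) grew in the drug at a large multiple of the IC50 of their line. P12 cells (6 samples) and P5 cells (3 samples) came from resistant cells kept without drug for 12 and 5 passages. The lines were #3, #4, #6, #7, #9 and #10, with 1 sample per line and state, and P5 exists for #3, #7 and #9. For #7 and #9 the title and group of the P5 sample say 5 passages, whereas its description says 12, and the title was followed.

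Cholesterol is built from acetyl-CoA through mevalonate, isoprenoid units, squalene and lanosterol, and fatty acids are built from the same precursor by carboxylation, chain synthesis, elongation and desaturation. The transcription factors SREBP1 and SREBP2, encoded by Srebf1 and Srebf2, switch these genes on when membrane sterols run low, while INSIG proteins hold the factors in the endoplasmic reticulum when sterols are plentiful. SREBPs act at promoters together with partners such as NF-Y, which binds CCAAT boxes, and SP1, which binds GC boxes. The products serve membranes, and farnesyl units from the mevalonate pathway anchor proteins to them.

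Promoter sequence from RefSeq (GRCm38.p6, the same assembly as the mm10 build of the study) was at hand for 23 of the 30 genes. The 250 bases before the annotated transcript start are shown for Hmgcs1, the gene with an SRE-type match, for 3 sterol enzymes whose level fell in resistant cells (Pmvk, Mvd and Nsdhl), and for Elovl6, the gene with the largest fall. Each reads 5′ to 3′ on the strand of the gene, and capitals mark the CCAAT box on either strand (ATTGG on the other) and the SRE-type motif TCACNCCAC. The windows are chr13:119690101-119690350 on the plus strand, chr3:89454291-89454540 on the plus strand (the outermost of 2 entries), chr8:122443423-122443672 on the minus strand, chrX:72918271-72918520 on the plus strand and chr3:129532136-129532385 on the plus strand.
Hmgcs1: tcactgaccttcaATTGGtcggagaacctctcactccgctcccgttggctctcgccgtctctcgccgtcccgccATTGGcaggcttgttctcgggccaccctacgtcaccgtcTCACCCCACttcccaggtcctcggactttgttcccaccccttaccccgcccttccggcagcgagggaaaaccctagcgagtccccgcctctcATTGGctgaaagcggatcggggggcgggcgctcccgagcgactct
Pmvk: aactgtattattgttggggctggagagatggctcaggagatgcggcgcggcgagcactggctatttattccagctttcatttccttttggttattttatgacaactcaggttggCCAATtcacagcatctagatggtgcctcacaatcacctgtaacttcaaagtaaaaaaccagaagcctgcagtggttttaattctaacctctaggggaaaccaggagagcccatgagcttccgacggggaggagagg
Mvd: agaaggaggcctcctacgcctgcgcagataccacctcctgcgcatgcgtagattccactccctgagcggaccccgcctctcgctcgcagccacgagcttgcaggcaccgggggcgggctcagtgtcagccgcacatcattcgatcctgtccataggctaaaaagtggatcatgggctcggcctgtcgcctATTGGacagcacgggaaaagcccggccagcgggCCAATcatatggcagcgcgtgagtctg
Nsdhl: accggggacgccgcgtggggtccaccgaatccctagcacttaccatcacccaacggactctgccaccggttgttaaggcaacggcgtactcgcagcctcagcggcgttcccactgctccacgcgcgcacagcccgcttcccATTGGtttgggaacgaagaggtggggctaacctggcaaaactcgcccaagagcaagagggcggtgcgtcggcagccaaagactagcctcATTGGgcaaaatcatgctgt
Elovl6: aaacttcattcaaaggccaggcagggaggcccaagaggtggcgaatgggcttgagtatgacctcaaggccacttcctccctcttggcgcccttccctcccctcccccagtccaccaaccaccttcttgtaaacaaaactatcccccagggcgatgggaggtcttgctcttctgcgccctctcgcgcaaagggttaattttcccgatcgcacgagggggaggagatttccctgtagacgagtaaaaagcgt

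CCAAT was found in 18 of the 23 promoters (78.3%), against 40% of the 12394 tested genes with a promoter entry and 33.8% of all 32851 entries. It was in all 13 sterol enzyme promoters at hand, for Dhcr7 only in an entry other than the outermost one. The 5 genes without it in any entry were Acly, Acaca, Elovl6, Fads2 and Lpin1, which all belong to fatty acid and glycerolipid synthesis. For Acaca and Lpin1 the only entry lies inside the gene and not at the start of the gene. The same holds for Fasn, which has CCAAT. The outermost of 3 Srebf1 entries, which also holds CCAAT, lies inside its gene as well. The Fasn window is chr11:120824548-120824797 in a gene of chr11:120805958-120825166, and the Srebf1 window chr11:60222582-60222831 in chr11:60199084-60224186. The Acaca window is chr11:84195188-84195437 in a gene of chr11:84129635-84401651, and the Lpin1 window chr12:16610967-16611216 in chr12:16535669-16653903. GGGCGG, the core of the GC box, was also in 18 of 23, against 59.1% of tested genes. CACGTG was in 4 (Hsd17b7, Sc5d, Dhcr7 and Insig1; 17.4% against 9.09%), and TCACNCCAC was in Hmgcs1 only, against 1.23% of tested genes. All motifs were searched on both strands, matches could overlap (as 2 CCAAT matches in Fasn do), and a gene with several entries counted once if any entry held the match. A match describes letters in a window and was not measured as binding.

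**Figure D1:**
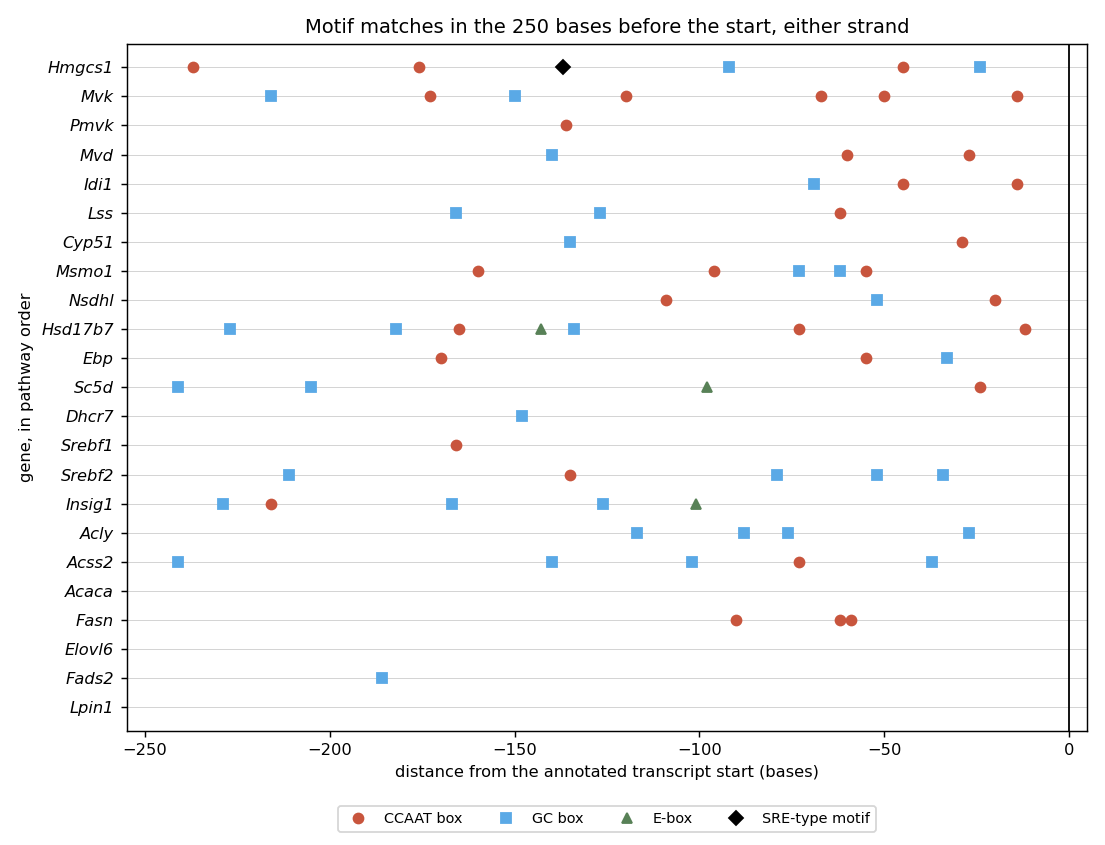
Matches of 4 motifs in the 250 bases before the annotated start of 23 genes, with the distance from the start in bases on the x axis and 1 gene per row. For genes with several entries the outermost one is drawn, and 9 of these windows hold 2 or more CCAAT boxes, with a maximum of 5 in Mvk. Matches found only in other entries are not drawn, namely CCAAT and CACGTG of Dhcr7 and the GC box of Srebf1.

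The samples summed to 28600000 to 37100000 normalized counts. The MAPK target genes Dusp6, Spry4, Etv4 and Etv5 were low in the resistant cells of all 6 lines and summed to 10900 to 19100 in parental, 22.8 to 695 in resistant and 13300 to 26900 in P12 cells. No proliferation gene of 8 passed the test between resistant and parental cells (limma). At an unadjusted p under 0.05, 2 of 8 were lower, against 2827 of 19300 genes. Epithelial identity was uneven, since the 5 epithelial markers summed to 15800 to 251000 in parental but 644 to 210000 in resistant cells. Epcam was below 10 in every sample, also where other epithelial markers were high, as in parental #3 (Cdh1 27906 and Krt8 78809). It therefore says nothing about differences between samples. Fibroblast markers summed to 105 to 22000 in parental and 1880 to 560000 in resistant cells. Of these 5, 1 (Dcn) was called higher, against 496 of 19300 genes. With the cell line as a replicate block 3 fibroblast markers were called higher (Dcn, Col1a1 and Col3a1) and 3 epithelial markers lower (Cdh1, Krt8 and Krt18), against none of the epithelial markers without it. The fit with the block called 936 of 19300 genes higher and 1081 lower. Adipocyte markers, which matter here because fat cells make lipids, summed to 3.17 to 399 in parental, 3.18 to 17.9 in resistant and 4.93 to 393 in P12 cells, with Adipoq, Plin1 and Lep below 10 throughout. Cidec, a lipid droplet protein, carried most of this, with 0, 141 and 392 as lowest, median and highest value in parental and 0, 0 and 2.2 in resistant samples. It was not called without the block (adjusted p = 0.015) and was called lower with it (adjusted p = 0.0017). Immune markers summed to at most 2900, endothelial to 890 and acinar to 938. The part of the epithelial, fibroblast and Cidec shifts in the lipid gene results was not tested, and in bulk samples fewer cells of a type cannot be told apart from less RNA per cell. The study reports a more mesenchymal state of the resistant cells, with less CDH1 and more CDH2 protein. This was not tested here.

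In resistant cells 5 of the 30 genes were lower than in parental cells and none was higher. The 5 were Pmvk, Mvd and Fdps of the mevalonate pathway, Nsdhl of the late sterol pathway, and the fatty acid elongase Elovl6. A gene was called at an adjusted p below 0.01 (Benjamini-Hochberg over all genes tested, limma) with a log2 fold change beyond 1 in size. This rule called 527 of 19300 genes lower, which is 2.73%, and 496 higher, which is 2.57%. No member had an unadjusted p under 0.05 on the higher side, where 2815 of 19300 genes did. With the cell line as a replicate block 10 members were called lower, against a background of 5.60%, and the added 5 were Idi1, Lss, Ebp, Scd1 and Lpin1. At an adjusted p below 0.05 with no fold limit 15 members were lower, against 7.90% of genes. The block and this looser rule together, chosen after seeing the data, gave 16, against 13.2% of genes. The calls changed when a line was left out. Without #7 or without #10 only Elovl6 was called, and without #6 Elovl6, Fdps and Pmvk. Without #3 Elovl6, Mvd, Nsdhl and Scd1 were called, without #9 all but Pmvk, and without #4 all 5 and Lpin1. Each such fit has fewer samples, and the share of all genes called in it is not given. A lost call therefore cannot be tied to the line left out.

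The fitted difference was below 0 for 28 of the 30 genes, with a median of -0.67 on the log2 scale, against -0.0049 over all genes tested. The 16 sterol enzymes had a median of -1.03 and the 9 fatty acid enzymes one of -0.48. In 14 genes the resistant sample was lower than the parental one in all 6 lines, which held for 9.49% of genes. In 7 genes (Pmvk, Mvd, Fdps, Nsdhl, Ebp, Acly and Elovl6) every resistant value lay below every parental value, against 3.16% of genes.

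**Figure D2:**
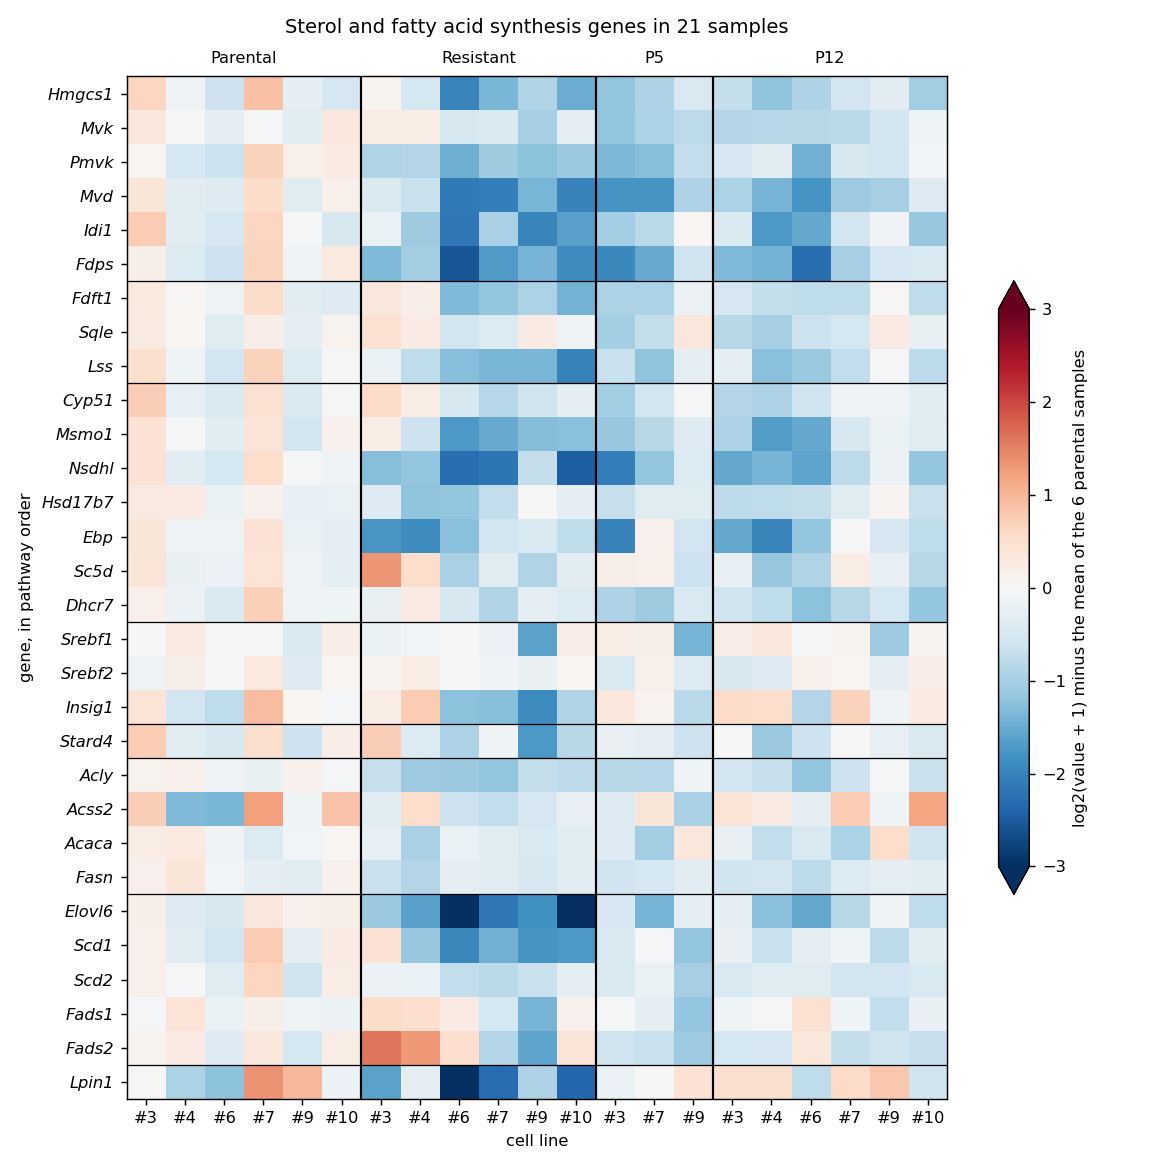
Heat map of the 30 genes (rows, in pathway order with lines between roles) in the 21 samples (columns, by state and line), coloured by log2(value + 1) minus the mean of the 6 parental samples. Blue dominates the resistant block for Mvd, Fdps, Nsdhl, Elovl6 and Lpin1, while Srebf2 stays near white, with values between 11627 and 19929.

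In the mevalonate pathway, Hmgcs1 condenses acetyl-CoA with acetoacetyl-CoA into HMG-CoA. Hmgcs1 had a normalized count of 5544 at the lowest, 7523 at the median and 15805 at the highest in parental samples. In resistant samples it measured 2188, 3961 and 9042. Its difference of -1.03 ± 0.31 (log2, SE) reached an adjusted p of 0.031 and was not called. Pmvk, phosphomevalonate kinase, measured 953, 1618 and 2424 in parental and 544, 703 and 817 in resistant samples. The groups did not overlap, and the difference was -1.10 ± 0.24 (adjusted p = 0.0041), or 46.6% of the parental level. Mvd, which decarboxylates mevalonate diphosphate, measured 1765, 2206 and 3385 in parental and 531, 736 and 1711 in resistant samples, a difference of -1.44 ± 0.31 (adjusted p = 0.0041). Its highest resistant value, in #3, lay just under the lowest parental value, in #6. Fdps, which makes farnesyl diphosphate, the unit used for sterols and for protein prenylation, measured 7579, 11868 and 18578 in parental and 1953, 4002 and 5712 in resistant samples. It fell to 31.9% of the parental level, with a log2 difference of -1.65 ± 0.32 (adjusted p = 0.0021) and no overlap. Idi1, the isomerase before Fdps, differed by -1.33 ± 0.35 (adjusted p = 0.016; 0.0035 with the replicate block). Mvk, mevalonate kinase, differed by -0.29 ± 0.21 (adjusted p = 0.37), and #4 was higher in resistant cells.

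In GRCm38.p6 Pmvk spans chr3:89454541-89469014, Fdps chr3:89093588-89101967, Mvd chr8:122433596-122443422, Nsdhl chrX:72918521-72958528 and Elovl6 chr3:129532386-129638495. Pmvk and Fdps lie on the same chromosome as Elovl6. All are protein-coding, and the values count reads over their transcripts.

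Between squalene and lanosterol, Lss, which closes squalene epoxide into lanosterol, measured 3885, 5421 and 9310 in parental and 1432, 2314 and 5019 in resistant samples. The groups overlapped through #3, and the difference was -1.17 ± 0.29 (adjusted p = 0.011, and 0.0047 with the block). Fdft1, squalene synthase, differed by -0.72 ± 0.29 (adjusted p = 0.1), with higher resistant values in #3 and #4. Sqle, the squalene epoxidase and a rate-limiting step of the pathway, had medians of 10190 in parental and 10207 in resistant samples. Its difference was -0.01 with a 95% interval of -0.52 to 0.49, and 3 lines were lower and 3 higher.

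On the way from lanosterol to cholesterol, Nsdhl, a decarboxylating dehydrogenase of the demethylation steps, measured 1834, 2506 and 3801 in parental and 470, 834 and 1598 in resistant samples. It fell to 31.2% of the parental level without overlap, at -1.68 ± 0.34 (adjusted p = 0.0027). Ebp, a sterol isomerase also encoded on chromosome X, measured 2850, 3160 and 4781 in parental and 969, 1774 and 2558 in resistant samples. The groups did not overlap, yet the difference of -1.11 ± 0.36 reached an adjusted p of 0.043, and of 0.0044 with the block. Its largest declines were in #3 (4552 to 1042) and #4 (3171 to 969). Msmo1, which acts on the same methyl groups as Nsdhl, differed by -1.03 ± 0.32 (adjusted p = 0.032) and Hsd17b7 by -0.63 ± 0.21 (adjusted p = 0.046). Cyp51, the lanosterol demethylase, Sc5d and Dhcr7, which makes the last reduction, differed by -0.23, -0.12 and -0.35 with adjusted p-values of 0.61, 0.85 and 0.27. Sc5d went in opposite directions by line, from 6314 to 12086 in #3 and from 4149 to 6936 in #4, but from 4266 to 2458 in #6 and from 4528 to 2570 in #9.

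Among the 3 genes of SREBP control none was called by limma, and none had an unadjusted p under 0.05. Srebf2 had medians of 16671 in parental and 16766 in resistant samples, and its difference of 0.01 had a 95% interval of -0.30 to 0.33. Srebf1 differed by -0.31 ± 0.31 (adjusted p = 0.56), where #9 alone fell far, from 6944 to 3093. Insig1, itself an SREBP target, measured 3807, 6433 and 12327 in parental and 1738, 3105 and 10919 in resistant samples. Its difference of -0.72 ± 0.41 missed the threshold (adjusted p = 0.26), and #4 went the other way, from 4306 to 10919. Stard4, which carries cholesterol between membranes, measured 2888, 4272 and 7509 in parental and 1338, 2907 and 7416 in resistant samples (-0.55 ± 0.33, adjusted p = 0.29). It was lower in all 6 resistant samples, by little in #3 and #4.

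At the entry to fatty acid synthesis, Acly, which splits citrate into acetyl-CoA, measured 13275, 15623 and 16999 in parental and 6767, 8054 and 9510 in resistant samples. The difference was -0.93 ± 0.16 (adjusted p = 0.001), with no overlap between the groups, and it missed the call only through the fold limit. Fasn, fatty acid synthase, differed by -0.49 ± 0.14 (adjusted p = 0.02) and was lower in 6 of 6 lines. Acaca and Acss2, which supply malonyl-CoA and acetate-derived acetyl-CoA, differed by -0.43 and -0.32 with adjusted p-values of 0.25 and 0.67. Elovl6, which lengthens palmitate to stearate, measured 5995, 9330 and 10581 in parental and 599, 2118 and 3865 in resistant samples. It fell to 21% of the parental level, at -2.25 ± 0.37 (adjusted p = 0.00054), and was called in every alternative fit, left-out lines included. Its decline was smallest in #3 and #4 and largest in #10, from 9379 to 599. Scd1, a desaturase that makes oleate, differed by -1.26 ± 0.33 (adjusted p = 0.014, and 0.0035 with the block), with #3 alone higher in resistant cells (19349 to 23522). Scd2 differed by -0.48 ± 0.18 (adjusted p = 0.084). The 2 desaturases share much of their coding sequence, so reads may have been split between them. Fads1 and Fads2, which desaturate polyunsaturated chains, differed by -0.09 and 0.22 (adjusted p = 0.88 and 0.77). Fads2 was higher in resistant cells of #3 (7285 to 20467), #4 (8060 to 16686), #6 (5160 to 9592) and #10 (7904 to 8762). It was lower in #7 (8424 to 3641) and #9 (4660 to 2257). Lpin1, a phosphatidate phosphatase on the way to triglycerides, measured 370, 828 and 2191 in parental and 97.5, 231 and 717 in resistant samples. Its difference was -1.76 ± 0.48 (adjusted p = 0.018, and 0.0023 with the block), and it was lower in 5 lines and higher in #4.

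**Figure D3:**
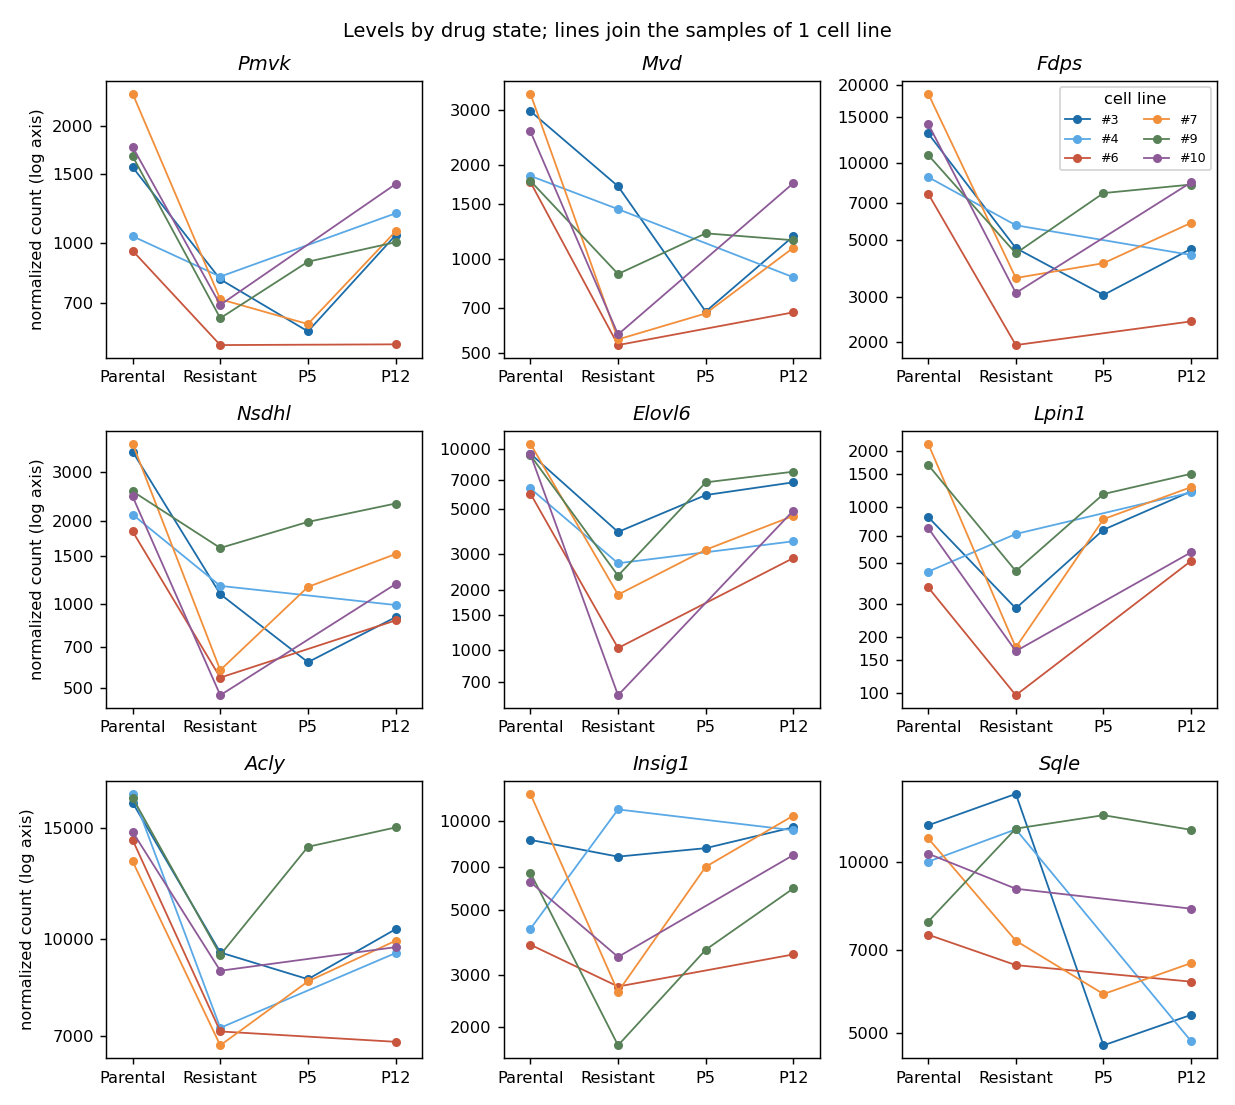
Normalized counts (log axis) of 9 genes in each drug state, with 1 coloured line per cell line and no P5 point for #4, #6 and #10. Elovl6 declined in all 6 lines and was higher again in all 6 P12 samples, while Sqle did neither.

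P12 cells were compared with resistant cells to see which genes came back after drug withdrawal, and this comparison shares the resistant samples with the one above. The largest differences were those of Lpin1 and Elovl6. Still, none of the 30 genes was called in either direction, where the rule called 2.13% of genes (limma). At an unadjusted p under 0.05, 5 members were higher, against 1922 of 19300 genes, and 1 was lower, against 1899 genes. Lpin1 measured 514, 1208 and 1510 in P12 samples, 1.93 ± 0.48 above resistant samples on the log2 scale (adjusted p = 0.02). Elovl6 measured 2871, 4789 and 7691, which was 1.45 ± 0.37 above (adjusted p = 0.022). At an adjusted p below 0.05 these 2 were the only members higher, against 3.20% of genes, and with the replicate block both were called (adjusted p = 0.0026 and 0.0046), against 2.52% of genes. With the block at an adjusted p below 0.05 they were joined by Scd1, so that 3 were higher, against 6.11% of genes. Lpin1, Elovl6 and Pmvk were higher in P12 in all 6 lines, and Sqle was lower in all 6, against 7.77% of genes higher and 8.20% lower in all lines. Scd1 differed by 0.86 ± 0.33 (adjusted p = 0.14, and 0.049 with the block) and Insig1 by 0.89 ± 0.41 (adjusted p = 0.23).

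Other genes that were low in resistant cells had small differences here. Fdps measured 2414, 5232 and 8389 in P12 samples (0.49 ± 0.32, adjusted p = 0.44), Nsdhl 875, 1089 and 2312 (0.57 ± 0.34, adjusted p = 0.38) and Mvd 676, 1119 and 1751 (0.34 ± 0.31, adjusted p = 0.61). Pmvk measured 546, 1057 and 1416 (0.53 ± 0.24, adjusted p = 0.21), Lss 2419, 3426 and 5671 (0.47 ± 0.29, adjusted p = 0.41) and Acly 6855, 9811 and 15031 (0.30 ± 0.16, adjusted p = 0.33). Stard4 differed by 0.14 ± 0.33 (adjusted p = 0.87). The median over the 30 genes was 0.15 and that over all genes tested 0.02.

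**Figure D4:**
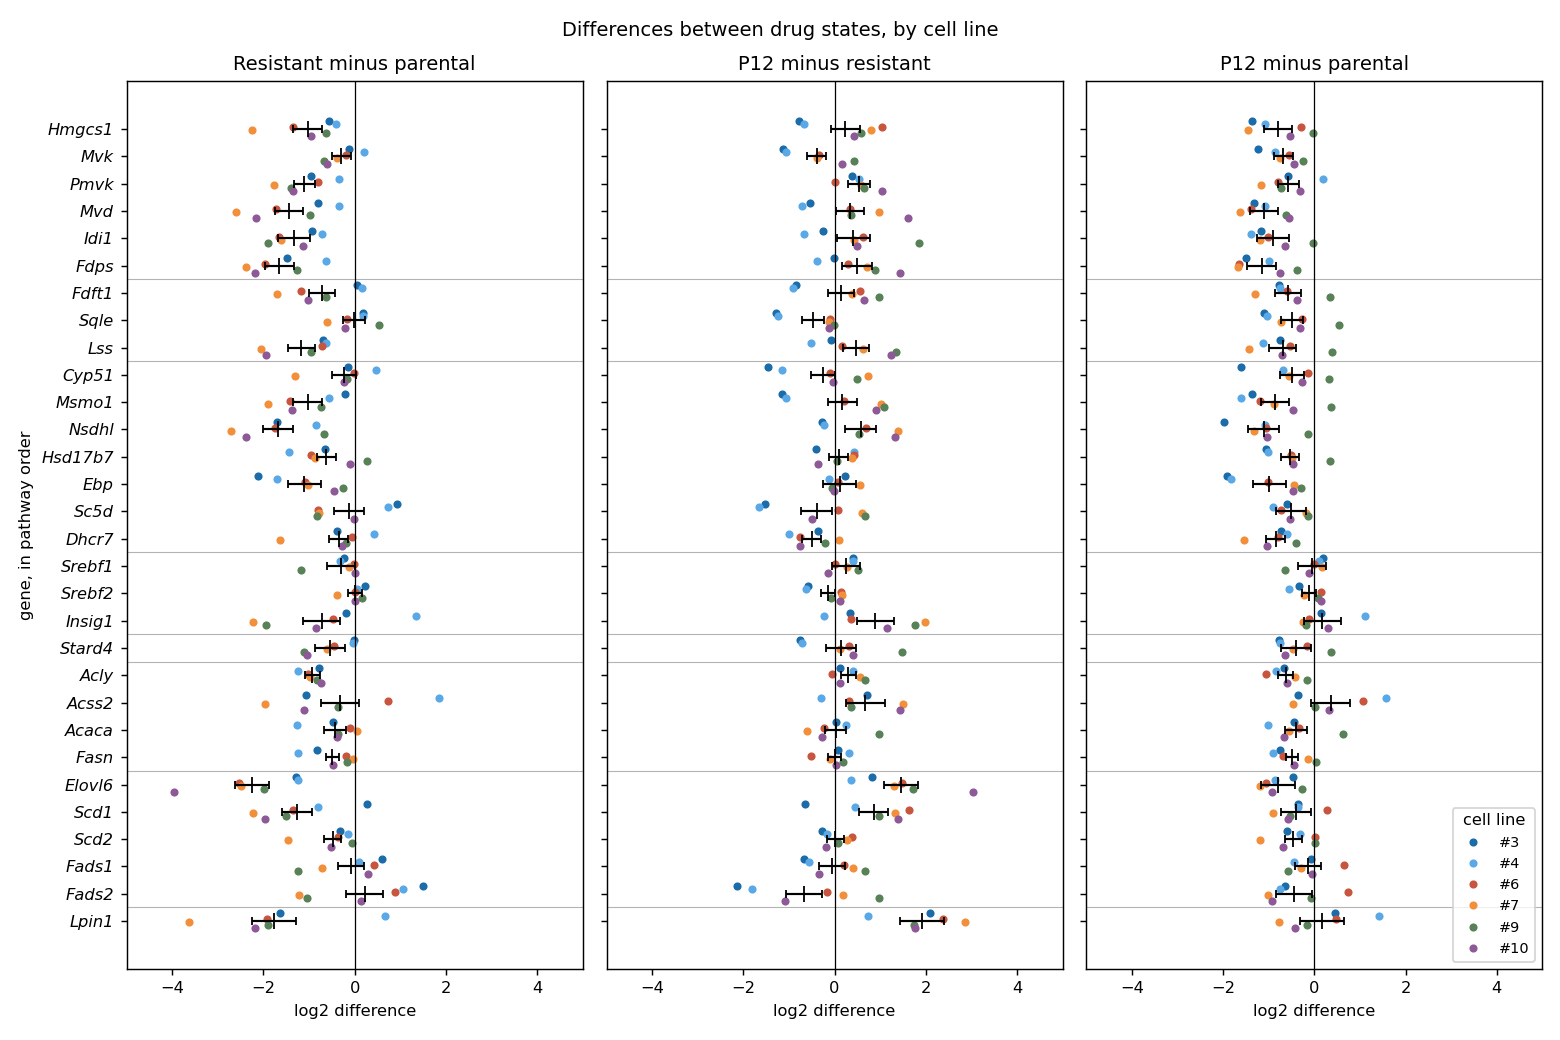
Log2 differences between states for the 30 genes (rows), with a coloured point for each of the 6 lines and a black bar for the limma estimate ± SE. Elovl6 lies left of 0 in all lines in the first panel and right of 0 in all lines in the second, whereas most sterol enzymes have points on both sides of 0 in the second.

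The sterol enzymes moved differently from line to line after withdrawal. In #3, 14 of the 16 sterol enzymes were lower in P12 than in resistant cells (median -0.47), and in #4 also 14 (median -0.70). Conversely, 12 of 16 were higher in #6 (median 0.19), 14 in #7 (0.59), 13 in #9 (0.56) and 10 in #10 (0.47). Over all genes tested the median lay between -0.01 and 0.01 in each line. Hmgcs1, for example, went from 9042 to 5231 in #3 and from 5953 to 3745 in #4, but from 2188 to 4513 in #6 and from 3317 to 5773 in #7. The step into resistance also varied, with a median over the 16 enzymes of -0.61 in #3, -0.38 in #4, -1.02 in #6, -1.67 in #7, -0.68 in #9 and -0.998 in #10. With 1 sample per line and state these differences have no replicate and were not tested. The study's methods give #3 and #4 as lines from male mice and the other lines as from female mice, and the study describes the resistant populations of #3 and #9 as grown from 1 clone. Neither was tested here.

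**Figure D5:**
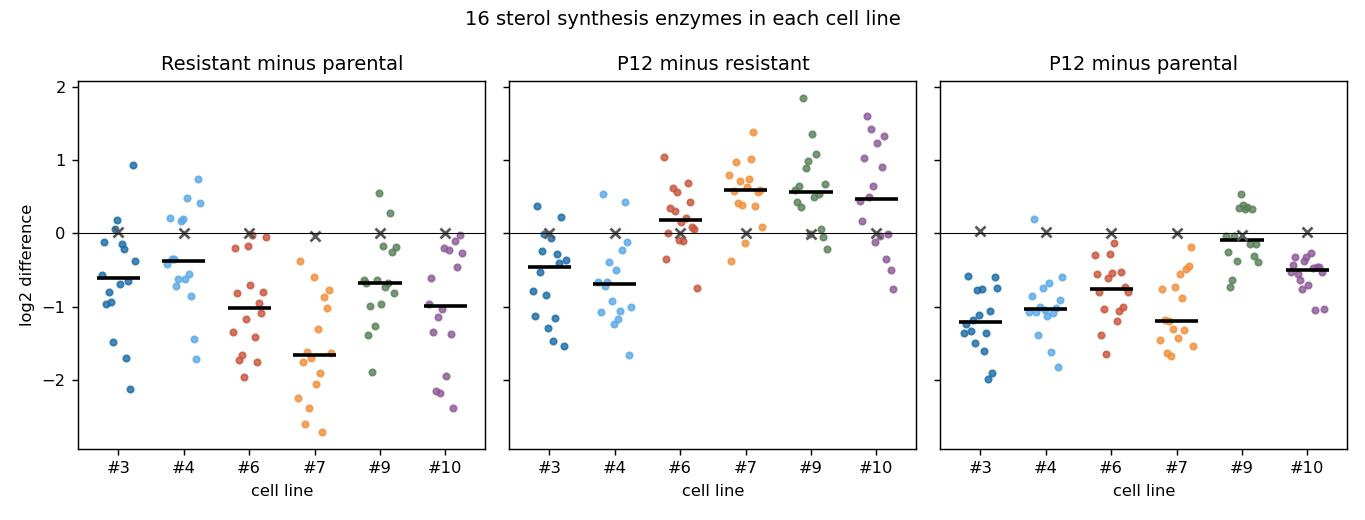
Log2 difference of each of the 16 sterol enzymes (points) in each line for 3 comparisons, with the median of the 16 as a black bar and the median of all genes tested as a grey cross. In the middle panel the bars of #3 and #4 lie below 0 and those of #6, #7, #9 and #10 above 0.

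P12 cells were also set against parental cells, which share the P12 and parental samples with the comparisons above. None of the 30 genes was called in either direction, where the rule called 0.114% of genes (limma). At an unadjusted p under 0.05, 16 members were lower and none higher, against 1511 of 19300 genes lower and 1442 higher. The fitted difference was below 0 for 27 of 30 genes with a median of -0.53, against 0.03 over all genes tested. All 16 sterol enzymes had a difference below 0 (median -0.75), from -1.16 for Fdps to -0.49 for Cyp51. In 11 genes the P12 sample was below the parental one in all 6 lines, against 6.96% of genes. With the block and an adjusted p below 0.05, a combination chosen after seeing the data, 6 members were lower, against 2.98% of genes. They were Mvd, Fdps, Nsdhl, Ebp, Dhcr7 and Acly. Dhcr7 measured 1384, 1868 and 2261 in P12 samples against 2406, 2968 and 5351 in parental samples. No value overlapped (-0.85 ± 0.20, adjusted p = 0.062). Mvd did not overlap either, with 1751 as the highest P12 and 1765 as the lowest parental value. The share of all genes without overlap was not counted for this comparison. Elovl6 differed by -0.80 ± 0.37 (adjusted p = 0.31) and Lpin1 by 0.16 ± 0.48 (adjusted p = 0.9).

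The 3 P5 samples gave no call against either state (limma; 0.378% of genes against resistant and 0.0259% against parental cells were called). Against resistant cells 2 members had an unadjusted p under 0.05 on the higher side (Elovl6 and Lpin1), where 1456 of 19300 genes did. On the lower side 1 member did (Mvk), where 1520 genes did. Against parental cells 10 members did, all lower, where 970 genes were lower at that level. P5 exists for 3 lines only, so without the block differences between lines enter these estimates. With the block no member was called either. At an unadjusted p under 0.05 (limma), 17 members were then lower than in parental cells, against 1399 of 19300 genes. The median of the 16 sterol enzymes against resistant cells was 0.08 without the block and -0.14 with it. Elovl6 measured 5890 in #3, 3155 in #7 and 6808 in #9, each above the resistant sample of its line. Lpin1 measured 756, 862 and 1176 in the same order, also above in each line. In #3 all 16 sterol enzymes were lower in P5 than in resistant cells (median -0.99), whereas 12 were higher in #7 and 13 in #9.

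Other genes of these pathways were read from lists of neighbours. Among other cholesterol synthesis enzymes, Acat2, which makes acetoacetyl-CoA, was called lower in resistant cells (-1.47 ± 0.28, adjusted p = 0.0016). Acat2 measured 2962, 3810 and 5747 in parental and 1040, 1298 and 2437 in resistant samples, so that the groups did not overlap. The sterol reductase Tm7sf2 was lower too (-2.55 ± 0.42, adjusted p = 0.00059). It measured 561, 1561 and 3770 in parental and 163, 224 and 448 in resistant samples, again without overlap. Of 13 other fatty acid genes 1 was called lower, against 2.73% of all genes. It was the mitochondrial citrate carrier Slc25a1 (-1.39 ± 0.32, adjusted p = 0.0068), which exports the citrate that Acly splits. With the block 3 of the 13 were called lower, against 5.60% of all genes. The others were the acyl-CoA synthetases Acsl3 (-1.34 ± 0.38, adjusted p = 0.0097 with the block) and Acsl4 (-1.36 ± 0.42, adjusted p = 0.0039 with the block). Neither Acat2, Tm7sf2 nor Slc25a1 was called between P12 and resistant cells (adjusted p = 0.25, 0.12 and 0.31). No gene of 6 for SREBP processing or of 8 for LXR and sterol efflux was called in resistant cells (limma). At an unadjusted p under 0.05, 3 of the 6 were higher and 1 was lower, and 2 of the 8 were lower. At that level 2815 of 19300 genes were higher and 2827 lower. With the block 1 of the 8 was called lower, Nr1h3, against 5.60% of all genes. The furthest from 0 in these lists were Insig2, which holds SREBPs back as Insig1 does (0.71, adjusted p = 0.045), and the oxysterol receptor Nr1h3 (-2.72, adjusted p = 0.019, and 0.00066 with the block).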

How the data were processed

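RNA-seq values of 21 samples (TruSeq stranded mRNA libraries) were analysed. The deposited values are normalized counts, a signal per gene that the authors made with Salmon 0.12 (mm10) and DESeq2 1.18 size factors, after base calling with CASAVA 2.17 or bcl2fastq 2.19, per the labels. Only 6.61% to 74.7% of low values per sample lay on whole multiples of 1 step (tolerance 0.1), so reads were not recovered, no count test was run, and the read depth behind the values is unknown. Log2(value + 1) of genes at 10 or more in at least 3 samples was fitted with limma 3.58.1 (R 4.3.3, trend) over all 4 states, without covariates, and differences are on that scale. A fold understates the change of low genes. The code was tested on simulated data. Replicates are cell lines, and same-numbered samples are the same line. Deviations from the group means correlated more within a line than between lines on average. Taking deviations from the group mean ties the between-line average to the within-line one with opposite sign, so it is no separate comparison. For resistant against parental samples the average r was 0.241 within and -0.0462 between lines. It was 0.457 and -0.0902 for P12 against resistant samples, and 0.316 and -0.0644 for P12 against parental samples. In this last pair 5 of 6 lines exceeded 0.1, whereas #3 reached only 0.00819, so its pairing is not shown there. Because of the average correlations, the fit with the line as a block is given beside results of the members and neighbouring lists. It is given where it changes a call between resistant and parental cells or a member's call. Alternatives were other pseudocounts (0.5 and 8), other filters, rescaling to the upper quartile (75%), limma without a trend, the compared states only, a looser call rule and leaving out each line. Which samples ran on which sequencer was not assigned in the sources used here. Members and lists were chosen with earlier results of these data known, so lists were described and not tested. Full statistics were given for the members called in resistant against parental or P12 against resistant cells and, in roles without one, for the member with the largest difference. From the neighbouring lists the genes called were named or, where none was, the one furthest from 0. Some genes of these lists and 1 allele of the mice are not reported here.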

Additional observations from a re-analysis of the deposited data

Results flagged for a closer look

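In 7 groups of 6 samples 1 value stood far from the other 5 by Dixon's test on the log2 scale, of 90 groups tested, where chance alone sets apart about 1 group in 20. Srebf1 in #9 stood low in resistant cells, at 3093 with the next at 8098, and again in P12, at 4424 with the next at 9428. Scd1 in resistant #3 stood high, at 23522 with the next at 7934. Acaca in resistant #4 stood low, at 3450 with the next at 4963. In P12 samples Fdft1 in #9 stood high, at 4887 with the next at 3383, Fads2 in #6 high, at 8559 with the next at 4762, and Pmvk in #6 low, at 546 with the next at 1003.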

How the results depend on the processing

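The number of members lower in resistant than in parental cells was 5, and became 10 with the cell line as a replicate block, 15 at an adjusted p below 0.05 without a fold limit, and 16 with both together, a setting chosen after seeing the data. Leaving out 1 line gave 1 to 6. Members higher in P12 than in resistant cells went from 0 to 2 with the block, to 2 with the looser rule and to 3 with both, and members lower in P12 than in parental cells went from 0 to 6 with both. The P12 difference of Stard4 ranged from -0.13 to 0.32 over the left-out lines and was below 0 without #9 only. Fitted over the compared states only, Mvd was not called (adjusted p = 0.012), and with a mean of at least 100 Lss was also called. The block changed no call of a member other than those given with the results. Of 300 single-gene values under the alternatives 274 kept direction and side of the threshold, 14 lost the call, 11 gained it and 1 turned. Rescaling to the upper quartile moved the median of all genes between P12 and resistant cells from 0.02 to 0.11. Neither depth nor sequencer could be examined.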
